A study of Mus musculus with 800 samples.

Results

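The genes described here are the V2R vomeronasal receptor genes of mouse chromosome 7, taken as every symbol made of Vmn2r and a number from 28 to 79 with no pseudogene suffix. The count table held 51 such genes among 28963, and Vmn2r64 was not analysed here. All 51 lay on chromosome 7 in GENCODE vM21 (GRCm38) and were annotated as protein coding. Values came from 800 capture chambers of 1 Fluidigm C1 HT chip, a microfluidic device that isolates single cells for 3′ end RNA sequencing. The chip was loaded with GFP-positive, Hoechst-positive and DRAQ7-negative cells of the vomeronasal organ. They came from 7 OMP(GFP/wt) male mice of strain B6;129P2-Omptm3Mom/MomJ, aged 66 days and pooled as 3 and 4 animals, so every chamber shared 1 genotype, sex and age and no treatment was compared. By the capture state in the labels, 49.2% of the chambers held a single cell and 40.6% were empty, while 63 held multiple cells and 18 a putative single cell. The GFP allele of Omp, which encodes olfactory marker protein, marks mature sensory neurons, so the sort selected such neurons. The labels did not tie chambers to the pools of mice, so no difference between cells was tested across animals.

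V2R genes encode receptors with a large extracellular domain that bind peptide and protein pheromones. They are transcribed in the basal layer of the vomeronasal epithelium, whose neurons use the G protein subunit Gαo (Gnao1), whereas neurons with V1R receptors lie apically and use Gαi2 (Gnai2). A basal neuron is thought to transcribe a single V2R gene of the large families together with 1 or more genes of the small V2R family C, which are broadly expressed and sit on another chromosome (Vmn2r1 and its relatives Vmn2r2 to Vmn2r6; Vmn2r7 was not analysed here). Some basal neurons also transcribe H2-Mv genes, a group of non-classical major histocompatibility genes.

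By position the 51 genes fell into 5 blocks where a gap of more than 1 Mb was taken as a boundary, a grouping made after the positions were read. Vmn2r28 stood alone at chr7:5477255-5493956. Vmn2r29 to Vmn2r52 formed an array of 24 genes at chr7:7231327-10176573, all on the minus strand. Vmn2r53 to Vmn2r56 were 4 genes at chr7:12562851-12735004, also all on the minus strand. Vmn2r57 to Vmn2r63 were 7 genes at chr7:41395945-42933822, with 2 on the plus and 5 on the minus strand. Vmn2r65 to Vmn2r79 were 15 genes at chr7:84935565-87044941, with 4 on the plus and 11 on the minus strand, and Vmn2r70 and Vmn2r71 overlapped on opposite strands.

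Genes within a block were close copies. Median identity over the coding sequence was 92.2% within the array of Vmn2r29 to Vmn2r52, 85.8% within Vmn2r53 to Vmn2r56, 84.4% within Vmn2r57 to Vmn2r63 and 80.9% within Vmn2r65 to Vmn2r79. Between the first and the second of these blocks it was 48.5%, although the numbers follow each other. Coding lengths ran from 2406 to 2634 bases. The last 60 coding bases (stop codon left out) are shown for sets of genes seen in the same single cells, chosen as examples from each block with called cells. The library read the 3′ end of transcripts, which for some of these genes is annotated beyond the coding sequence. The bases shown need not be those that were read, and their part in the shared counts was not tested. Letters are capitals where a base differs from the first gene of its set at the same position, all are given 5′ to 3′ in the direction of transcription, and they were read from GENCODE vM21 transcripts (GRCm38). The first set is Vmn2r42 (chr7:8184216-8184275, minus strand) with Vmn2r32 (chr7:7463972-7464031, minus) and Vmn2r49 (chr7:9976248-9976307, minus).
Vmn2r42: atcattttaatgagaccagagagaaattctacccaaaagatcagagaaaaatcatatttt
Vmn2r32: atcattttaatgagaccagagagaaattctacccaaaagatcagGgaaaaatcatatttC
Vmn2r49: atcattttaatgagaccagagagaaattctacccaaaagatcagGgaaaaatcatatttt
Vmn2r32 differed from Vmn2r42 at 2 of these bases and Vmn2r49 at 1, with 99.1% coding identity for both.

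The second set is Vmn2r34 (chr7:7671832-7671891, minus) with Vmn2r37 (chr7:9206106-9206165, minus) and Vmn2r45 (chr7:8471472-8471531, minus), and the third is Vmn2r41 (chr7:8137908-8137967, minus) with Vmn2r40 (chr7:8907737-8907796, minus) and Vmn2r48 (chr7:9927627-9927686, minus).
Vmn2r34: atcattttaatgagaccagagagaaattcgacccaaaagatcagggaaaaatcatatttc
Vmn2r37: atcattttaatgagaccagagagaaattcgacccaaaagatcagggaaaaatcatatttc
Vmn2r45: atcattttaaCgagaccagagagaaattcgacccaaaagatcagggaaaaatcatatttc
Vmn2r41: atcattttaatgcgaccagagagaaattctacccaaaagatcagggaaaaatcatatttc
Vmn2r40: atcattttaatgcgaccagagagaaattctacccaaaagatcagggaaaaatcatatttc
Vmn2r48: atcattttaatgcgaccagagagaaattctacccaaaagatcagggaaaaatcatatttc
Vmn2r34 and Vmn2r37 were identical over this stretch, as were Vmn2r41, Vmn2r40 and Vmn2r48. Over the 24 genes of the array there were 15 different ends, and 5 genes (Vmn2r30, Vmn2r40, Vmn2r41, Vmn2r48 and Vmn2r51) shared 1 end. Examples outside the array are Vmn2r53 (chr7:12581473-12581532, minus) with Vmn2r54 (chr7:12615236-12615295, minus), Vmn2r62 (chr7:42764441-42764500, minus) with Vmn2r63 (chr7:42903254-42903313, minus), and Vmn2r77 (chr7:86811970-86812029, plus) with Vmn2r79 (chr7:87037906-87037965, plus).
Vmn2r53: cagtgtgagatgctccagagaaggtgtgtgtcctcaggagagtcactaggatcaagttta
Vmn2r54: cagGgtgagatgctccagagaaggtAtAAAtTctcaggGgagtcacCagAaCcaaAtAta
Vmn2r62: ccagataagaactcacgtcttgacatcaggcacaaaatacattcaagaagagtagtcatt
Vmn2r63: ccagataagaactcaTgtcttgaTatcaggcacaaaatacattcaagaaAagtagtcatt
Vmn2r77: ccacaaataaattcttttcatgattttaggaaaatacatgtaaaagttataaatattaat
Vmn2r79: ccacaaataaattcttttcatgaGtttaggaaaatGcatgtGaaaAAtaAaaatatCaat
The differences from the first gene of each pair numbered 12 for Vmn2r54, 3 for Vmn2r63 and 7 for Vmn2r79.

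Values are counts of 5-base unique molecular identifiers (UMIs), tags that mark a captured RNA molecule, so a gene's length does not enter them. Total counts per single-cell chamber ran from 6521 to 260930 with a median of 149647.5, and the median empty chamber held 20731. Levels within called cells are given as counts per 10000 total counts of the cell, so that cells of different depth can be set side by side, and thresholds are in deposited counts. A cell's receptor was called as the receptor gene outside family C with the highest count, where it had at least 10 counts and 50% of the receptor counts left after 2 corrections. The first kept a receptor count only where it exceeded 5 counts plus 3 times the upper quartile of that gene, both among chambers that share its row and among those that share its number in the chamber names. The second left out receptors that share at least 1% of the 50-base words of their transcripts with the top receptor, and genes are said to share words only where they reach this 1%. Without them 7 cells in place of 32 were called for one of these genes.

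Of the 51 genes, 20 (39.2%, exact Clopper-Pearson 95% interval 25.8 to 53.9%) were the called receptor of at least 1 single cell. The same share was 44.3% over all functional receptor genes outside family C, 46.2% over V1R genes and 42.9% over the 63 other functional V2R genes, so the genes of chromosome 7 stood near the background. As deposited, with neither correction, 7 of the 51 genes were called (13.7%), against 25.6% of all functional receptor genes and 17.5% of the other V2R genes. A count of at least 10 in a single cell was reached by 43 of the 51 genes (84.3%), against 84.8% of all functional receptor genes and 93.7% of the other V2R genes. The 8 that did not reach it were Vmn2r33, Vmn2r35, Vmn2r38, Vmn2r43, Vmn2r52, Vmn2r66, Vmn2r76 and Vmn2r78, with highest counts from 3 to 9, and no gene of the 51 was at 0 in every single cell. All intervals cover counting error only, because the cells are from 1 chip.

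By block, 8 of 24 genes of Vmn2r29 to Vmn2r52 were called, 4 of 4 of Vmn2r53 to Vmn2r56, 4 of 7 of Vmn2r57 to Vmn2r63, 4 of 15 of Vmn2r65 to Vmn2r79, and Vmn2r28 was not. The genes numbered 65 to 79 had a share of 26.7% (7.79 to 55.1%), an interval that holds the background value. The 32 cells called for the 51 genes made up 10% (6.94 to 13.8%) of 320 called cells and 39% (28.4 to 50.4%) of 82 V2R cells. By number, 20 cells were called for genes 28 to 56, 7 for genes 57 to 64 and 5 for genes 65 to 79. The 20 cells of the first range divided into 13 for the array and 7 for Vmn2r53 to Vmn2r56. Vmn2r36, Vmn2r53 and Vmn2r62 were each called in 4 cells, Vmn2r42 in 3, Vmn2r77 in 2 and 15 other genes in 1 cell each.

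**Figure D1:**
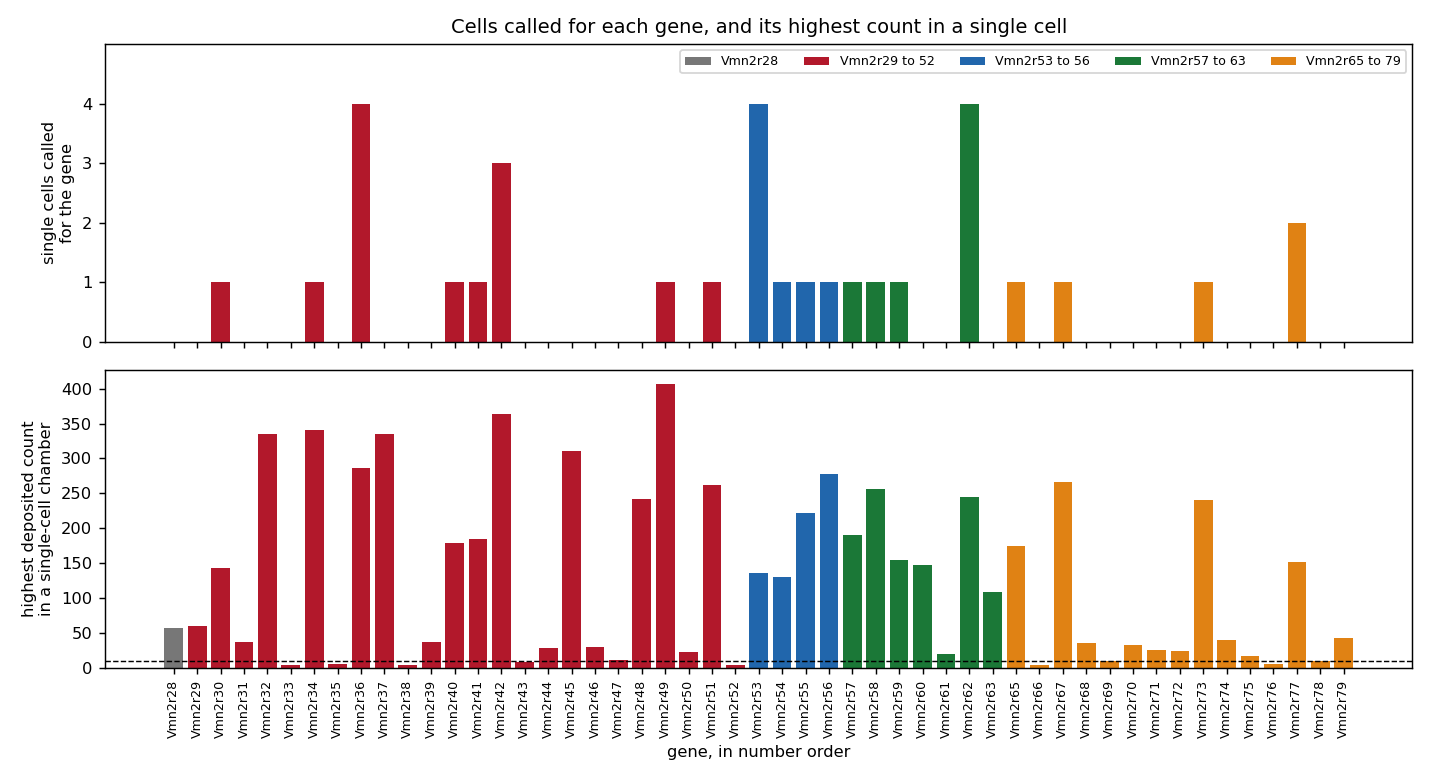
Single cells called for each of the 51 genes (upper bars, number of cells) and the gene's highest deposited count in any single-cell chamber (lower bars, UMI counts), in number order and coloured by position block; the dashed line is 10 counts. Vmn2r36, Vmn2r53 and Vmn2r62 have 4 cells each, while Vmn2r32, Vmn2r37, Vmn2r45 and Vmn2r48 reach high counts with no cell called. The bar of Vmn2r36 includes cells with 44 and 30 counts of it, where Gnai2 exceeded Gnao1.

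In the 32 cells the called gene had between 14 and 407 counts, with a median of 168.5, or 1.09 to 23.9 counts per 10000 with a median of 11.7. The median level per 10000 was 11.9 for the array (14.5 in its 9 cells with more Gnao1 than Gnai2), 8.57 for Vmn2r53 to Vmn2r56, 12.6 for Vmn2r57 to Vmn2r63 and 11.8 for Vmn2r65 to Vmn2r79, and the ranges of the blocks overlapped. The highest count, 407 of Vmn2r49, corresponded to an estimated 518.8 molecules once repeated use of the 1024 possible tags was allowed for. Summed over the single cells, the highest deposited counts belonged to Vmn2r42 (2053), Vmn2r49 (1634), Vmn2r32 (1627), Vmn2r62 (943), Vmn2r36 (942), Vmn2r29 (914), Vmn2r55 (762), Vmn2r45 (726), Vmn2r48 (704) and Vmn2r53 (617). These sums did not follow the calls. Vmn2r32, Vmn2r45, Vmn2r48 and Vmn2r29 stand among them with no called cell, and Vmn2r42 reached 10 counts in 35 cells as deposited but in 8 after the first correction.

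Each of the 9 cells of the array of Vmn2r29 to Vmn2r52 in which Gnao1 exceeded Gnai2 held at least 10 counts of another gene of the array. The Vmn2r42 cells with high counts had levels per 10000 of 23.9 for Vmn2r42, 20.4 for Vmn2r32 and 19.5 for Vmn2r49, and of 21.8, 20.9 and 16.9. The Vmn2r49 cell had 23.1 of Vmn2r49, 19.1 of Vmn2r42 and 19 of Vmn2r32. These are the genes of the first set of sequences above. All 3 genes were high in each of these cells, and which of them led differed.

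The Vmn2r34 cell had levels per 10000 of 14.5 for Vmn2r34, 14.2 for Vmn2r37 and 13.2 for Vmn2r45, the second set above. The Vmn2r30 cell had 11.6 of Vmn2r30 with 8.86 of Vmn2r45, 2.68 of Vmn2r34 and 2.6 of Vmn2r37. In the Vmn2r41 cell 13.3 of Vmn2r41 came with 13 of Vmn2r40 and 9.05 of Vmn2r48, the third set. The top gene and the next were near-equal in the Vmn2r34 and Vmn2r41 cells and further apart in the Vmn2r30 cell. The Vmn2r51 cell had 20.5 of Vmn2r51 and 19 of Vmn2r48, which share their last 60 coding bases. The Vmn2r36 cells with high counts had 11.9 and 10.95 of Vmn2r36, against 1.75 and 2.84 of Vmn2r48 and, in the second, 3.04 of Vmn2r51. In these Vmn2r36 cells the gap to the next gene of the array was wide. In the first of them, however, the next receptor was Vmn2r107, a V2R gene outside the set, far above Vmn2r48. Vmn2r36 held 53.85% of the receptor counts left in that cell, so it was not a clear leader over all receptors.

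Vmn2r53 had levels per 10000 of 8.57, 7.97, 6.77 and 6.1 in its 4 cells, a narrow range. Its neighbour Vmn2r54, with 93.9% coding identity, had 2.33, 2.39, 3 and 0.639 in the same cells. The Vmn2r54 cell had 10.08 of Vmn2r54, 5.43 of Vmn2r55, 2.25 of Vmn2r53 and 1.63 of Vmn2r56. That the called gene was above each of its 3 neighbours in these 5 cells follows from the rule for a call. The Vmn2r55 cell had 18.3 of Vmn2r55 with 3.13 of Vmn2r56. The Vmn2r56 cell had 16.6 of Vmn2r56 with 12.5 of Vmn2r55 and 4.43 of Vmn2r54. By the same rule the called gene was the highest of the 4 in every cell of this block. At least 1 other was above 10 counts in all 7.

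Vmn2r62 had levels per 10000 of 13, 12.6, 10.7 and 8.85 in its 4 cells. Vmn2r63 had 5.75, 5.49, 4.98 and 5.9 in the same cells and Vmn2r57 2.71, 2.4, 1.44 and 2.41. Vmn2r63 was below Vmn2r62 in each, which a call for Vmn2r62 requires, and was not called in any single cell. The Vmn2r57 cell had 17.8 of Vmn2r57 and 3.65 of Vmn2r63. A V1R gene, Vmn1r218, was nearly equal to Vmn2r57 in that cell. Vmn2r57 held 51.08% of the receptor counts left, just above the 50% needed for a call. The Vmn2r58 cell had 15.4 of Vmn2r58 with 3.18 of Vmn2r59, 1.92 of Vmn2r60 and 1.14 of Vmn2r61. It also had 3.36 of Vmn2r28, which shares under 1% of words with Vmn2r58. A V2R pseudogene, Vmn2r-ps38, was above each of these other genes, and Vmn2r58 held 59.12% of the receptor counts left. The Vmn2r59 cell had 9.07 and no sharing gene that met the rule for a further gene, at least 10 counts and 10% of the top. Among cells that were not called, Vmn2r58 led 1 cell with 47.5% of the receptor counts left and Vmn2r60 led 1 with 40.3%, below the 50% needed for a call.

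In the block of Vmn2r65 to Vmn2r79 the Vmn2r65 cell had 12.1 counts per 10000 of Vmn2r65 and no other gene of the 51 at 10 counts. The Vmn2r77 cells had 11.8 and 10.7 of Vmn2r77 with 3.26 and 3.28 of Vmn2r79. The Vmn2r73 cell had 16.6 of Vmn2r73 with 1.73 of Vmn2r71, 1.45 of Vmn2r70 and 0.83 of Vmn2r74. In each of these cells the called gene was more than 3 times the next gene of its block. In the Vmn2r65 cell the next receptor of any family was Vmn1r221, and Vmn2r65 held 64.93% of the receptor counts left. The Vmn2r67 cell, the deepest of this block at 235382 total counts, had 11.3 of Vmn2r67, with 1.66 of Vmn2r74, 1.49 of Vmn2r68, 1.36 of Vmn2r70, 0.977 of Vmn2r72, 0.722 of Vmn2r75 and 2.51 of Vmn2r29. Of these, only Vmn2r68 both shared words with Vmn2r67 and met the rule for a further gene.

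**Figure D2:**
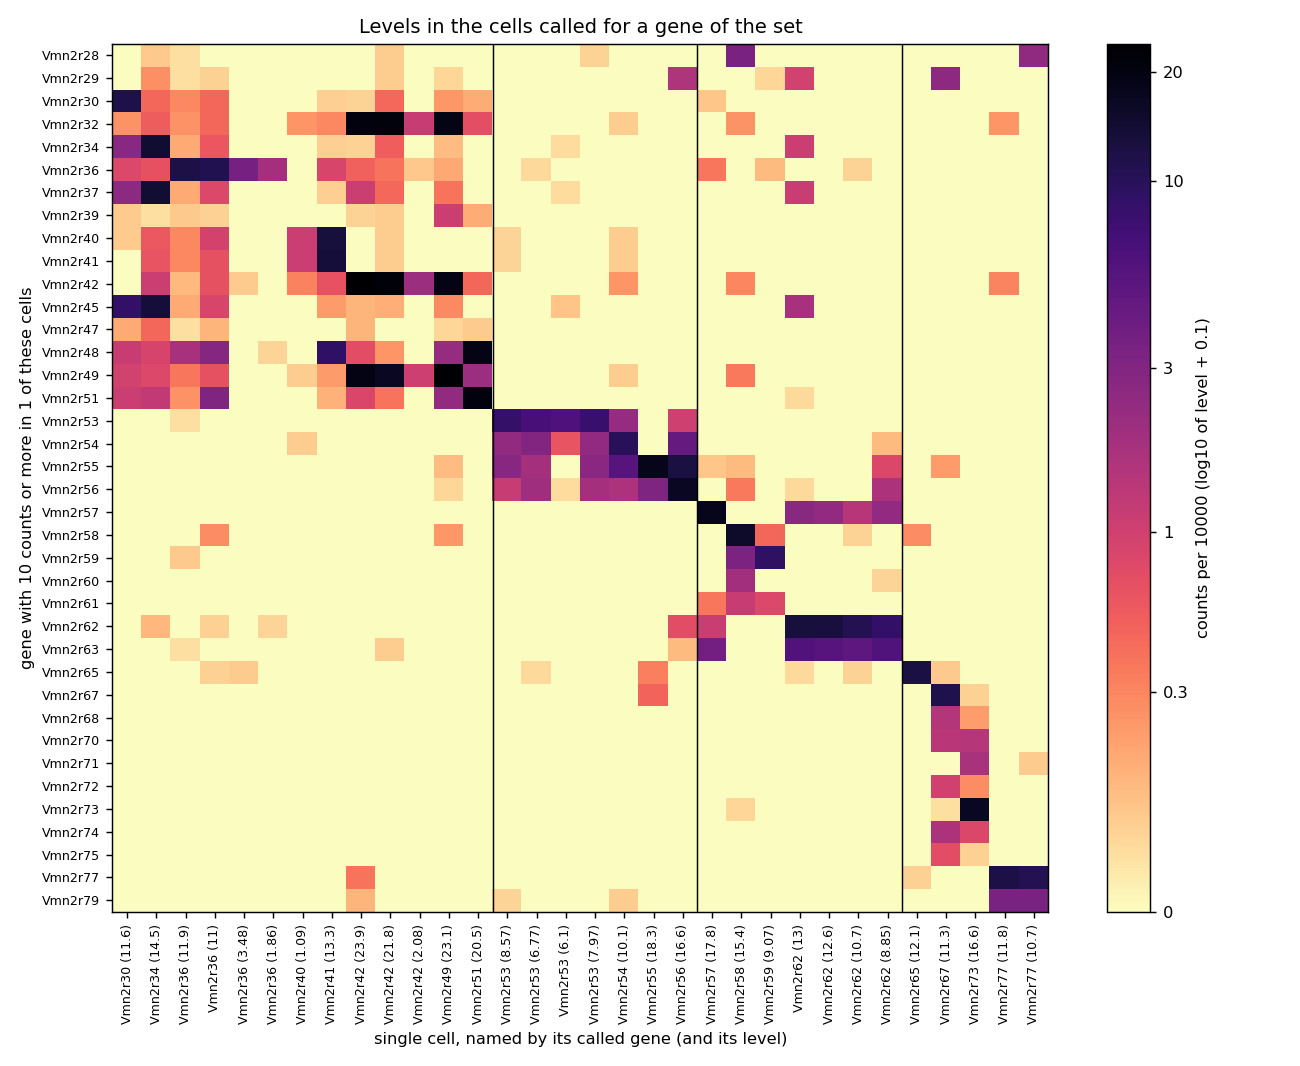
Levels (colour, counts per 10000 total counts, on a log10 scale of level + 0.1) of each gene with at least 10 counts in 1 of the 32 called cells; columns are the cells, named by the called gene and its level, and vertical lines separate the position blocks. Most high levels lie within the block of the called gene. Outside it, Vmn2r28 has 3.36 in the Vmn2r58 cell and 2.48 in a Vmn2r77 cell, and Vmn2r29 has 2.51 in the Vmn2r67 cell. Several genes are near-equal in many cells of Vmn2r29 to Vmn2r52. A single gene of the 51 leads in the 5 cells of Vmn2r65 to Vmn2r79.

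In called cells the genes seen together were mostly those that share sequence. The rule for a call works toward this. Genes sharing words with the top receptor were left out before the 50% share was taken, while other receptors counted against it. How much of the split below the rule sets was not tested. In the 28 cells whose called gene had at least 50 counts, other genes of the 51 reached 10 counts 97 times, of which 82 were genes sharing words with the called gene and 86 lay in its block. Genes sharing under 1% of words had a median of 0% of the called gene's count and reached 10 counts in 1.3% of 1155 cases. At 1 to 10% shared words the median was 0.352% of the called count, and 13.6% of cases reached 10 counts. At 10 to 30% the median was 2.14%, and 39.6% of cases did. At 30% or more the median was 43.9%, the highest 98.2%, and 79.4% of 34 cases reached 10 counts. Cases share cells and blocks, so they are a description and not replicates. Whether a cell with near-equal counts transcribed 1 gene or several was not tested. The name of the deposited table refers to fractional counting of multimapping reads, all its values were whole, and the settings are not given in the sources used here.

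**Figure D3:**
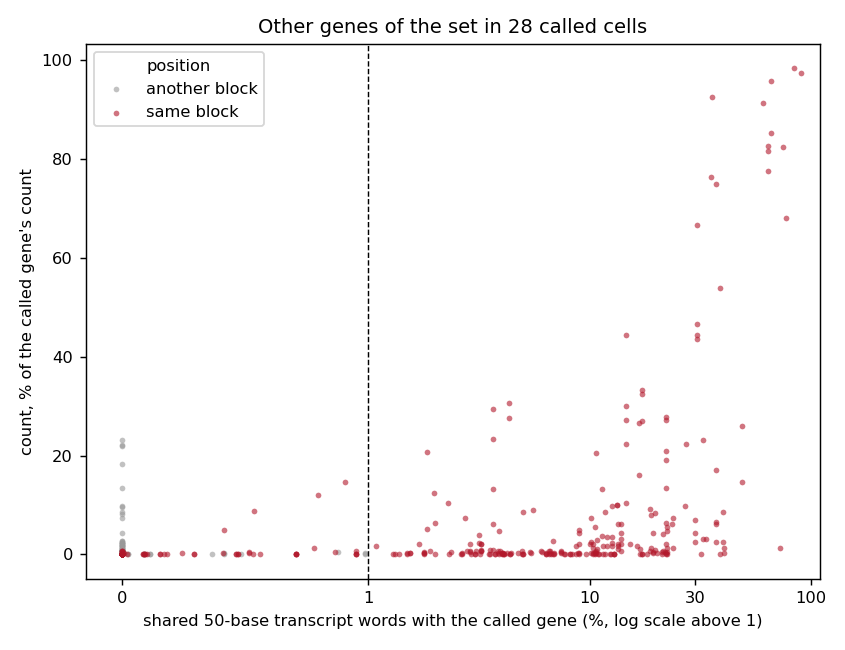
Count of every other gene of the 51, as a percent of the called gene's count, against the percent of 50-base transcript words it shares with the called gene (linear to 1, log above; dashed line at the 1% limit), in the 28 cells whose called gene had at least 50 counts. Points of the same block (red) reach 98.2% at high shares of words, while genes of other blocks (grey) stay at or below 23.1%. Genes sharing at least 1% of words were left out of the 50% share of the call, while other receptors counted against it. That rule limits the counts the other receptors can have in a plotted cell.

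Within the numbers 28 to 56 there were 406 pairs of genes, 25.4% of which were seen together at 10 kept counts in at least 1 single cell, and of these 96.1% shared words. The most frequent were Vmn2r40 with Vmn2r41 (10 cells, 89.8% shared words and 99.8% coding identity), Vmn2r48 with Vmn2r51 (9 cells, 35.9% shared words), and then Vmn2r42 with Vmn2r49 (64.2%) and Vmn2r55 with Vmn2r56 (37.3%) in 7 cells each. In their shared cells the lower of Vmn2r40 and Vmn2r41 had a median of 100% of the higher, so the 2 could not be told apart by count. Within 57 to 64 there were 21 pairs, 9 of them seen together and 8 of those sharing words. Vmn2r62 with Vmn2r63, Vmn2r57 with Vmn2r62, and Vmn2r57 with Vmn2r63 were seen in 5 cells each. Within 65 to 79, 21 pairs (20%) were seen together, 11 of them sharing words, and none in more than 2 cells. Vmn2r77 with Vmn2r79 (4.32% of words) and Vmn2r70 with Vmn2r74 (0.771%, under the 1% limit) were seen in 2 cells each. Between the ranges there were 743 pairs, none sharing 1% of words (highest 0.111%), and 25 were seen together.

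Once genes that share words were set aside, a further gene of the 51 was seen in 4 of 32 cells (12.5%, 3.51 to 29%). With genes that share words it was 27 of 32 (84.4%, 67.2 to 94.7%). The 50% rule of the call limits genes that do not share words and exempts those that do, so the 2 shares are not alike. The 4 cells were the Vmn2r58 cell with Vmn2r28 at 56 counts, a Vmn2r62 cell with Vmn2r56 at 27, a Vmn2r77 cell with Vmn2r28 at 31, and the Vmn2r67 cell with Vmn2r29 at 59, Vmn2r74 at 39 and Vmn2r70 at 32. A further receptor of any family that shares under 1% of words was seen in 14 of 32 cells (43.8%, 26.4 to 62.3%), against 32 of 50 cells called for other V2R genes (64%). That group of 50 included 2 cells called for a V2R pseudogene. The interval of the second share, 49.2 to 77.1%, overlapped that of the first.

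Vmn2r29 was singled out in the array after its values were seen. It reached 10 counts in 30 single cells, both as deposited and after the first correction, with a highest count of 59. It was never the called gene. Of these 30 cells 15 were called for V1R genes, 3 for genes of the 51, 4 for other V2R genes and 1 for an Fpr gene, and 7 were not called. Gnao1 exceeded Gnai2 in 8 of the 30. In the 9 cells of its own array where Gnao1 exceeded Gnai2, its highest count was 6. Deposited counts of 10 in many V1R cells were not particular to Vmn2r29. Vmn2r42, Vmn2r32 and Vmn2r49 reached them in 35, 27 and 27 single cells, of which 19, 14 and 14 were V1R cells. After the first correction these 3 genes kept 10 counts in 8, 6 and 9 cells. Vmn2r32 was not called in any cell either.

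The receptor calls were set beside Gnao1 and Gnai2. Gnao1 exceeded Gnai2 in 27 of the 32 cells (84.4%, 67.2 to 94.7%), in 41 of 50 cells of other V2R genes (82%) and in 3 V1R cells (1.27%). Of the 5 exceptions, 4 were the cells with the lowest counts of the called gene. They were Vmn2r36 cells with 44 and 30 counts, the Vmn2r42 cell with 24 and the Vmn2r40 cell with 14 (tied with Vmn2r41), where Gnao1 had 2, 2, 3 and 3 counts. Another chamber with the same number in its name held 3.68, 5.4, 11.7 and 12.8 times the count of that gene, in the same order. The part of cross-talk in these 4 calls was not tested, and medians and counts over the array are given with and without them where they differ by more than 1.5 times. The fifth exception was a Vmn2r53 cell with 25 counts of Gnao1 and 52 of Gnai2. Among the other cells, the Vmn2r55 and Vmn2r59 cells had 1.14 and 0.903 times their count in another chamber of the same number, both with Gnao1 above Gnai2.

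Family C partners were found in most of these cells. Vmn2r1 reached 3 counts in 25 of 32 cells (78.1%, 60 to 90.7%), and at least 1 of Vmn2r2 to Vmn2r6 did in 27 of 32 (84.4%, 67.2 to 94.7%). The shares in cells of other V2R genes were 37 of 50 (74%, 59.7 to 85.4%) and 32 of 50 (64%, 49.2 to 77.1%). V1R cells, which should lack them, were as deep (median 150392 total counts, against 151429.5) and had shares of 4.24% and 20.8%, and empty chambers had 7.38% and 17.5%. Both shares in the cells of the 51 genes thus lay above this background. Where Gnao1 exceeded Gnai2, Vmn2r1 was present in 24 of 27 cells (88.9%) and Vmn2r2 to Vmn2r6 in 23 of 27 (85.2%). Vmn2r1 and Vmn2r2 share 10% of their words and Vmn2r4 and Vmn2r6 14.6%, while no family C gene shared more than 0.0317% with any of the 51.

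The balance of family C genes differed by block. Vmn2r6 had levels per 10000 of 6.5, 5.9, 5.65, 5.28, 4.4, 3.72, 2.35, 1.93 and 0.291 in the 9 array cells with Gnao1 above Gnai2. It had 0.164, 0.0492, 0, 0, 0, 0 and 0 in the 7 cells of Vmn2r53 to Vmn2r56. In the 7 cells of Vmn2r57 to Vmn2r63 it had 1.58, 0.266, 0.0936, 0, 0, 0 and 0. The 4 array cells with low receptor counts had 1.114, 0.26, 0.237 and 0. The 9 array cells lay above all 7 cells of Vmn2r53 to Vmn2r56, but over all 13 array cells the ranges overlapped through the Vmn2r40 cell at 0. Against Vmn2r57 to Vmn2r63, 1 of the 9 array cells and all 4 low-count cells lay below that block's highest cell at 1.58. The array cell was the Vmn2r36 cell (0.291) that also held Vmn2r107. In the 5 cells of Vmn2r65 to Vmn2r79 Vmn2r6 had 5.31 (Vmn2r67), 4.98 (Vmn2r73), 3.28 and 1.63 (Vmn2r77) and 0 (Vmn2r65), so these lay on both sides.

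At 10 counts or more, Vmn2r6 was present in 9 of 13 array cells (69.2%, 38.6 to 90.9%), or 8 of 9 (88.9%, 51.7 to 99.7%) with the low-count cells left out. It was present in 0 of 7 cells of Vmn2r53 to Vmn2r56 (upper bound 41%), 1 of 7 of Vmn2r57 to Vmn2r63 and 4 of 5 of Vmn2r65 to Vmn2r79. For comparison it was present in 11 of 50 cells of other V2R genes (22%, 11.5 to 36%) and in 7.2% of V1R cells. Vmn2r1 had a median of 0.244 per 10000 in the 13 array cells (range 0 to 3.53) and 0.388 in the 9 with Gnao1 above Gnai2. Its median was 1.58 in Vmn2r53 to Vmn2r56 (0 to 4.61), 2.35 in Vmn2r57 to Vmn2r63 (0.84 to 5.68) and 1.28 in Vmn2r65 to Vmn2r79 (0.83 to 4.78). The median of Vmn2r1 was thus lowest where that of Vmn2r6 was high in the array, but its ranges overlapped between all blocks.

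Summed over Vmn2r2 to Vmn2r6, the median level per 10000 was 4.74 in array cells (13.5 in the 9 with Gnao1 above Gnai2), 0.332 in Vmn2r53 to Vmn2r56, 1.06 in Vmn2r57 to Vmn2r63 and 5.84 in Vmn2r65 to Vmn2r79. More Vmn2r1 than this sum was seen in 1 of 13 array cells (the Vmn2r51 cell, 45 counts against 36), 6 of 7 cells of Vmn2r53 to Vmn2r56, 6 of 7 of Vmn2r57 to Vmn2r63 and 1 of 5 of Vmn2r65 to Vmn2r79 (the Vmn2r65 cell, 69 against 50). Over all 32 cells it was 14 (43.8%), against 27 of 50 cells of other V2R genes (54%). The numbers 28 to 56 thus hold 2 blocks whose cells had opposite balances. No test was made between blocks, since the cells are from 1 chip and their animals are not known, so block and animal cannot be told apart.

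**Figure D4:**
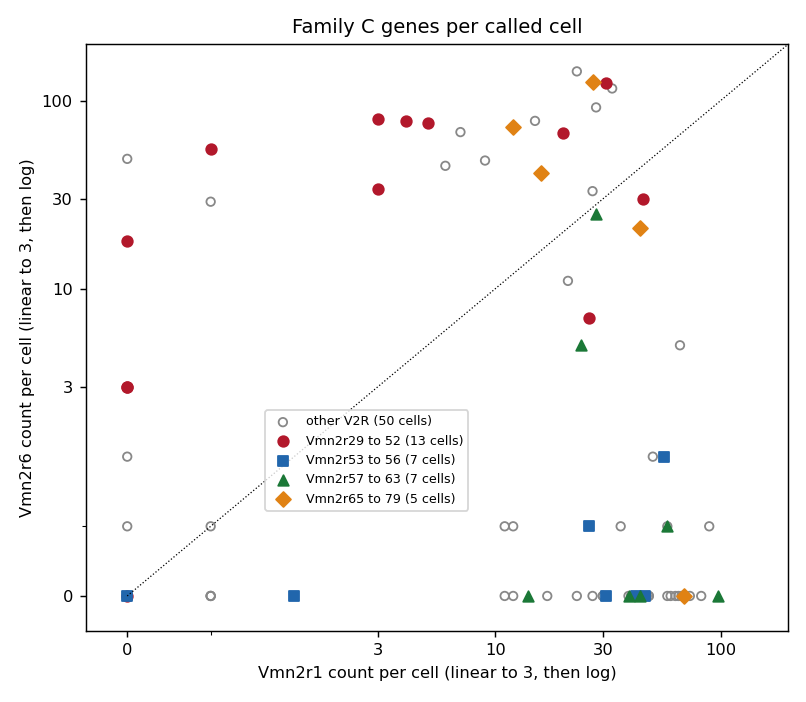
Vmn2r6 against Vmn2r1 counts per single cell (both axes linear to 3 and log above; dotted line, equal counts) for the 32 cells called for a gene of the set, by block, and for 50 cells of other V2R genes (open circles). Of the Vmn2r29 to Vmn2r52 cells 10 of 13 lie above the line, and all 14 cells of Vmn2r53 to Vmn2r63 lie on or below it.

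The other family C genes varied between blocks too. Vmn2r4 had a median level per 10000 of 1.76 in the 13 array cells (4.06 in the 9 with Gnao1 above Gnai2) and 1.55 in Vmn2r65 to Vmn2r79, against 0.133 in Vmn2r53 to Vmn2r56 and 0.16 in Vmn2r57 to Vmn2r63. Vmn2r3 was uneven within the array, with 5.52, 3.96, 3.96, 3.25 and 2.91 in 5 cells and at most 0.362 in the other 8. Its median in the array was 0.237 over the 13 cells and 2.91 over the 9. Vmn2r2 had medians of 0.997 in the array (1.77 in the 9 cells), 0.315 in Vmn2r53 to Vmn2r56, 0.468 in Vmn2r57 to Vmn2r63 and 1.32 in Vmn2r65 to Vmn2r79. Summed over cells and scaled to counts outside receptor genes, the 32 cells had 2.23 times the Vmn2r3 (95% interval 1.96 to 2.55, counting error only) and 1.77 times the Vmn2r6 (1.6 to 1.95) of the other V2R cells, and 0.846 times the Vmn2r1 (0.775 to 0.922). By the same measure 10.7% of 13167 genes outside the receptor families were at least 2-fold higher and 15.6% at least 2-fold lower. In cells with Gnao1 above Gnai2 the ratio was 1.83 for Vmn2r6 (1.65 to 2.03), with 11.4% of genes 2-fold higher and 15.8% lower. Vmn2r3 had medians of 3.5 counts in the 32 cells and 2 in the other V2R cells, so few cells carried its ratio.

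H2-Mv genes were read next, since they are transcribed in part of the basal neurons. At 10 counts or more, at least 1 of these genes was seen in 17 of 32 cells (53.1%, 34.7 to 70.9%), in 22 of 50 cells of other V2R genes (44%, 30 to 58.8%) and in 17.4% of V1R cells. H2-M10.3 was the most frequent, in 15 of 32. It had levels per 10000 of 9.78, 8.8, 7.87, 7.64, 6.74, 6.08, 4.88, 4.53 and 3.62 in the 9 array cells with Gnao1 above Gnai2, and 0 to 0.247 in the 7 cells of Vmn2r53 to Vmn2r56. These 9 and 7 cells did not overlap, and the 4 array cells with low receptor counts, at 0.871, 0.434, 0.186 and 0, overlapped the 7. In Vmn2r57 to Vmn2r63 it had 2.69 in the Vmn2r59 cell, 1.2 in a Vmn2r62 cell and at most 0.458 in the other 5. In Vmn2r65 to Vmn2r79 it had 10.31 (Vmn2r73), 8.96 (Vmn2r67), 2.64 and 0.08 (Vmn2r77) and 0 (Vmn2r65).

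Other H2-Mv genes were found in fewer cells. H2-M10.4 had levels per 10000 of 16.4 in the Vmn2r59 cell, 12.2 in a Vmn2r62 cell and 10.37 in the Vmn2r67 cell, and reached 10 counts in 10 of 32 cells. H2-M10.5 had 15.2 in the Vmn2r73 cell, 12.1 in the Vmn2r67 cell and 9.53 in a Vmn2r42 cell, and H2-M10.6 8.79 in the Vmn2r73 cell and 5.96 in the Vmn2r34 cell. Both reached 10 counts in 8 of 32 cells. H2-M10.1 did so in 3 cells, led by the Vmn2r34 cell at 9.49, and H2-M10.2 in 2. H2-M1, H2-M9 and H2-M11, singled out after their values were seen, reached 10 counts in 0 of 32 cells each (upper bound 10.9%), against 5 of 50, 5 of 50 and 3 of 50 cells of other V2R genes, with overlapping intervals.

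**Figure D5:**
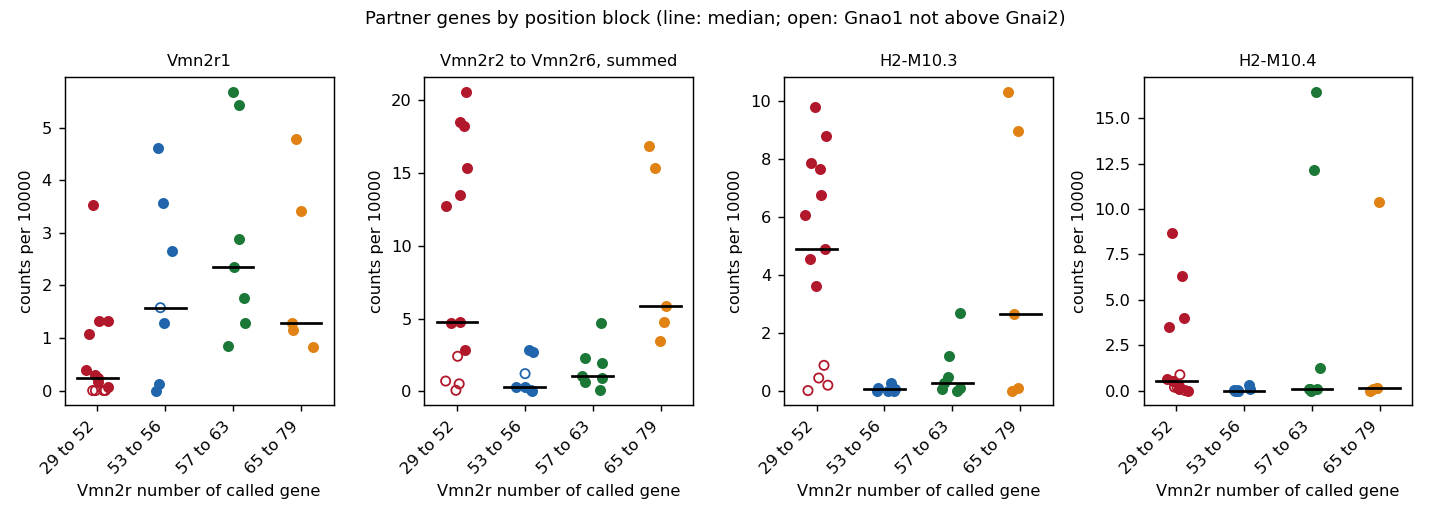
Levels (counts per 10000 total counts) of Vmn2r1, of Vmn2r2 to Vmn2r6 summed, of H2-M10.3 and of H2-M10.4 in the 32 called cells, by block of the called gene (points, cells; lines, medians; open points, cells where Gnao1 did not exceed Gnai2). H2-M10.3 has a median of 4.88 in Vmn2r29 to Vmn2r52 cells and 0.0509 in Vmn2r53 to Vmn2r56 cells.

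Further genes of basal neurons were compared with cells of other V2R genes. Gnao1 had a median of 76.5 counts against 66.5 (ratio of scaled sums 1.09, 1.03 to 1.15), and 1 in V1R cells. Gng8, a G protein γ subunit, had a ratio of 1.15 (1.11 to 1.19), with median levels per 10000 of 10.55 in the 32 cells, 9.69 in cells of other V2R genes and 9.37 in V1R cells, so it did not separate basal from apical cells here. Gng2, a γ subunit of apical neurons, had a median of 5.5 against 6 counts, and 98 in V1R cells. Omp had 85 against 78.5. Robo2, an axon guidance receptor of basal neurons, had a median of 38 against 9.5, with quartiles of 1.75 and 53.75 against 0 and 45.5 that overlap. In cells with Gnao1 above Gnai2 the Robo2 medians were 39 and 36. Tfap2e, a transcription factor of basal neurons, had 2 against 4 (2 against 13 with Gnao1 above Gnai2), and the apical genes Meis2 and Nrp2 had 3 against 3 and 1.5 against 3.

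Chaperones and maturation markers were compared in the same way. Calr4, a calreticulin gene active in these neurons, had medians of 98.5 and 90.5 counts, and B2m, the partner of class I molecules, 97.5 and 73. Hspa5, a chaperone of the endoplasmic reticulum, had a ratio of 1.1 (1.05 to 1.15). Calr reached 10 counts in 2 of 32 cells against 14 of 50, with a ratio of 0.342 (0.275 to 0.422). The immature-neuron markers Gap43, Stmn2 and Dcx had medians of 1, 23.5 and 1 against 1, 15.5 and 0 counts, and Stmn2 had 20 against 21 with Gnao1 above Gnai2. Dcx had a ratio of 2.01 (1.73 to 2.35), carried by 8 of 32 cells at 10 counts against 7 of 50. All these intervals leave out the spread between cells.

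Markers of other cell types were low in most of the 32 cells. The progenitor and cycling markers Neurog1 and Mki67 were at 0 in all 32. The lists for immune cells, glia and endothelium had medians of 0 and highest sums of 43, 38 and 20 counts, with C1qa, Fabp7 and Cldn5 at 0. These lists reached 10 counts in 4, 5 and 1 of the 32 cells, and the sustentacular list in 5. The sustentacular list summed to a median of 2 counts and at most 27.1 per 10000 counts, or at most 2.43 per 10000 where Gnao1 exceeded Gnai2, with Cyp1a2 and Sec14l3 at 0 in all. The 4 apical-neuron markers summed to a median of 26 counts (range 7 to 370), and of 15 where Gnao1 exceeded Gnai2. The part of these cell types in the results was not tested.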

How the data were processed

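Counts of unique molecular identifiers per gene and chamber were deposited by the authors as 1 raw table. Tools named by the submitters' processing notes are STAR 2.5.4b, featureCounts 1.6.1, UMI-tools 0.5.3 and SAMtools 1.5, with GRCm38 as genome build and no settings. The name of the deposited table refers to fractional counting of multimapping reads, but all values were whole numbers, and the settings are not given in the sources used here. Of the columns 1 belonged to no chamber and was not used. Each chamber was 1 sample, grouped by its labelled capture state. Multiple-cell chambers were kept apart by label, and no doublet caller was run.

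Receptor calls, the 2 corrections, levels per 10000 total counts of a cell and positions (GENCODE vM21) were computed with Python 3.11.15, numpy 2.4.6, pandas 2.3.3 and scipy 1.17.1. Shares have exact Clopper-Pearson and ratios of summed counts exact conditional binomial 95% intervals. No test was made, since chambers are not tied to animals. Total counts in the 32 cells ran from 106847 to 240707. Tested on simulated data of 455 receptor genes, the steps called 400 of 420 cells (95.2%) for the true gene and the other 20 for its simulated copy. Each simulated gene had a single copy, set below its level and known to the steps, and low levels were left out. The test thus cannot show whether the right gene is named among near-equal genes of the array or in cells with low counts. Alternatives were: as deposited, each correction left out, higher minima, added putative chambers, Gnao1 above Gnai2, thinning to 50000 counts and separate chamber numbers.

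The members and lists were chosen with earlier results of these data known. Genes named were every gene called in a cell, the 10 with the highest summed counts, the 3 most frequent pairs of each number range (with ties), family C, H2-Mv genes at 10 counts in a called cell, and a list of basal, apical, chaperone and maturation genes. Pairs of 65 to 79 tied at 1 cell were not listed. Other genes, among them the receptors outside the 51 named in called cells, were chosen after their values were seen.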

Additional observations from a re-analysis of the deposited data

Results flagged for a closer look

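Of the 18 chambers labelled putative single cell, which enter no comparison above, 6 (33.3%, 13.3 to 59%) were called for a V2R gene of chromosome 7, against 9.85% (6.83 to 13.6%) of empty chambers and 8.12% (5.62 to 11.3%) of single-cell chambers. The share of empty chambers called was thus no lower than that of single-cell chambers. The genes, with their levels per 10000 counts, were Vmn2r36 (26.6), Vmn2r79 (25.8), Vmn2r34 (25.3), Vmn2r59 (15.7), Vmn2r56 (15.1) and Vmn2r31 (10.2). Vmn2r79 and Vmn2r31 were called in no single-cell chamber.

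In 7 chambers labelled empty, the called gene of the set had at least 100 counts. The levels per 10000 counts were 73.8 of Vmn2r36, 64.5 and 42.9 of Vmn2r40, 54.7 of Vmn2r55, 26.7 of Vmn2r65, 13.3 of Vmn2r31 and 11.6 of Vmn2r30. Total counts there ran from 22962 to 119454, against a median of 20731 over all empty chambers. The median called count over the 32 empty chambers called for these genes was 39, against 168.5 in the single cells.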

How the results depend on the processing

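With no correction, 7 genes of the set were called in 7 cells, a further gene was seen in 71.4% of these and Vmn2r1 in 100% (7 of 7). Without the shared-sequence step alone, 10 genes were called in 14 cells and a further gene was seen in 64.3%. Counting genes that share sequence gave 84.4% for a further gene. Any of Vmn2r2 to Vmn2r6 was present in 65.6% of cells at 10 counts and in 62.5% after thinning to 50000 counts. Chamber numbers 1 to 10 and 11 to 20, split after seeing the data, held fewer cells by construction: 21 cells were called in the first, and 9 genes in 11 cells in the second, where Vmn2r1 was present in 100%. The other alternatives kept counts within 1.5 times and shares within the 95% interval of the main value. No paired analysis was possible because no replicate numbers link chambers and no test was made. The depth of each cell limits the absence of family C genes at low counts.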
